A study of Mus musculus with 4 samples.

Results

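Genes of glycolysis and of the response to hypoxia were compared in mouse mammary tumours that carried the transgene MMTV-cdc25a on top of MMTV-neu and in tumours that carried MMTV-neu alone. The list held 36 genes chosen by name and function, and 30 of them were matched on the array through their current or former symbol, out of 32659 genes or transcripts tested. Of these 30, 29 passed a filter on weak signal, and P4ha2 did not. Another 4 genes of the list (Slc2a1, Gapdh, Pgam1 and Pdk1) had probes that the array names otherwise and that an annotation table ties to the gene by accession. They were measured in the same way and are counted apart, which gives 33 measured genes. Aldoc and Ankrd37 were not analysed here.

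The study used 2-colour oligonucleotide arrays on tumours of 2 MMTV-cdc25a;MMTV-neu mice (Cdc25a;neu) and 2 MMTV-neu mice (neu). All were FVB/N females aged 26 weeks with mammary tumours at the early stage T1, and all of them carried the neu transgene. RNA of 1 Cdc25a;neu and 1 neu tumour formed a pair, and each pair was run on 2 arrays with the dyes swapped, which gave 4 arrays. MMTV, the mouse mammary tumour virus promoter, drives expression mainly in mammary epithelium, and the arrays measured whole tumours, which hold other cells as well. Neu is Erbb2, a growth factor receptor with tyrosine kinase activity, and Cdc25a is a phosphatase that activates cyclin-dependent kinases. Ratios are given on the log2 scale as Cdc25a;neu over neu, so a positive value means a higher level in Cdc25a;neu tumours. An SD is between the 2 pair ratios. P-values of the main test rest on the spread between 2 pairs of mice, which limma moderates with the spread of all genes. The later test between the pairs rests on the spread between dye-swapped arrays.

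Glycolysis breaks glucose down to pyruvate in the cytosol, and tumours often run it at a high rate and release the product as lactate. Many of its enzymes are also targets of HIF-1, a transcription factor whose alpha subunit (Hif1a) is hydroxylated by the Egln prolyl hydroxylases and destroyed while oxygen is present. When oxygen falls, HIF-1 accumulates, binds DNA at a short core sequence, and raises genes for glucose uptake, glycolysis, vessel growth, mitophagy and pH control. HIF-1 is controlled largely at the protein level, which arrays do not measure.

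The share of spots detected well above background ran between 78.5% and 92.2% for Cy3 and between 82.7% and 87.9% for Cy5. Ratios of all kept probes correlated at r = 0.643 between the dye-swapped arrays of pair 1, at 0.754 between those of pair 2, and at 0.34 between the pairs. The Cdc25a probe used gave 0.09 in pair 1 and 0.01 in pair 2 (limma adjusted p = 0.781), and another Cdc25a probe gave 0.14 and 0.08. Whether the transgene holds the sequence of these probes is not stated in the labels. Erbb2 gave 0.45 and 0.85 (limma adjusted p = 0.489). Of 8 epithelial marker genes, which are keratin and adhesion genes and Erbb2, 7 were well above background on all 4 arrays in Cdc25a;neu tumours. In neu tumours all 8 were, so these markers of the labelled mammary tissue were all detected there. In whole tumours, fewer cells of a type and less RNA per cell cannot be told apart.

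No gene of the list passed the test. With limma on the 2 pair ratios and adjustment over all genes, 0 of the 29 genes matched by name had an adjusted p under 0.05 (lowest 0.437), as did 0 of all genes tested (percent called 0, lowest adjusted p 0.222). At an unadjusted p under 0.05, 5 genes were higher in Cdc25a;neu tumours (Hk1, Ldhb, Egln3, Egln1 and Tpi1) against 3.92% of all genes, and 1 was lower (Gpi1) against 5.74% of all genes. Values on all 4 arrays lay above 0 for 8 of the 29 genes, which is 27.6% against 14.7% of all genes tested. They were Egln1, Egln3, Hk1, Hk2, Tpi1, Ldhb, Bnip3 and P4ha1. Signs were taken before rounding, and 7 remain without P4ha1, which has values that round to 0.00. Gpi1 and Pfkm lay below 0 on all 4 arrays, which is 6.90% against 12.4% of all genes. With median centring in place of loess these counts were 2 above and 0 below. Without the pair 1 array that had Cdc25a;neu in Cy3 they were 12 above and 4 below, where fewer arrays had to share a sign. Of the 29 genes, 28 were well above background in both channels on all arrays, and of these 28.6% lay above 0 on all arrays, against 16.2% of all genes with such signal. Both Cdc25a;neu tumours had a higher signal than both neu tumours for 7 of the 29 genes (24.1%, against 8.66% of all genes), and a lower one for 2 (6.90%, against 11.2%). The median ratio of the 29 genes was 0.03 in pair 1 and 0.19 in pair 2, beside 0.01 in each pair for all genes. No mean ratio of the 29 reached 1 in size, and among all 33 measured genes only that of Slc2a1 did, one of the 4 matched by accession.

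**Figure D1:**
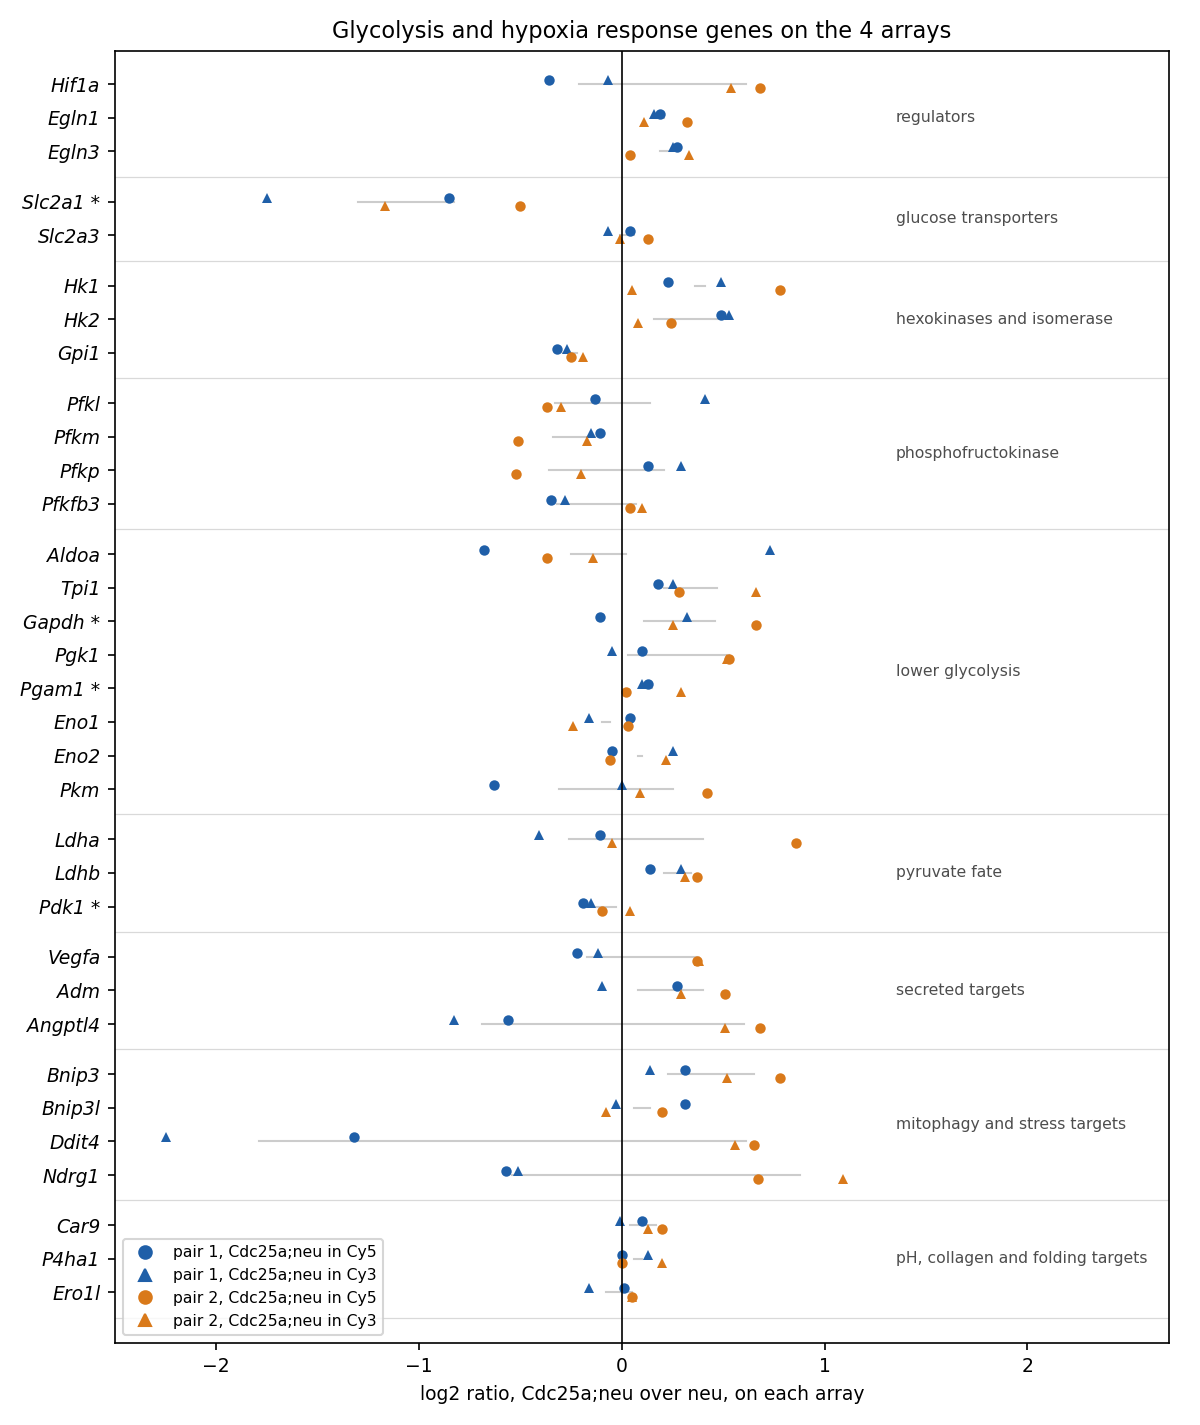
Log2 ratio of Cdc25a;neu over neu on each of the 4 arrays for the 33 measured genes, ordered by role. Blue marks pair 1 and orange pair 2, circles the arrays with Cdc25a;neu in Cy5 and triangles those with it in Cy3, and grey lines join the 2 pair means. An asterisk marks genes matched by accession. Slc2a1 lies left of 0 on all arrays, while Ddit4, Ndrg1 and Angptl4 lie left of 0 in pair 1 and right of 0 in pair 2.

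The core that HIF-1 binds is ACGTG or GCGTG, and it was searched on both strands of the promoters that RefSeq gives for these genes on build GRCm38.p6 (250 bases before to 50 after the start). The promoters of 5 genes are shown because their ratios are discussed most below. Slc2a1, Bnip3 and Hk1 had the largest ratios of 1 sign in both pairs among the genes with an entry, Hk2 is the paralog of Hk1, and Ddit4, picked after its values were seen, had the widest gap between the pairs. Each is written 5′ to 3′ along its gene, with matches of the core in capitals. A match on the opposite strand reads CACGT or CACGC, and CACGTG holds ACGTG on both strands.
Slc2a1, chr4:119108495-119108794, plus strand: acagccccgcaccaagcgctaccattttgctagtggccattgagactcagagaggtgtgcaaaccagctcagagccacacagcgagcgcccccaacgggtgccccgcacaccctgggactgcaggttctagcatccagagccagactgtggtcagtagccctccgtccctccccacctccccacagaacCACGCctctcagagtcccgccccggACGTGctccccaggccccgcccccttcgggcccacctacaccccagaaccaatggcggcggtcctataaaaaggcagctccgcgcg
Bnip3, chr7:138909457-138909756, minus strand: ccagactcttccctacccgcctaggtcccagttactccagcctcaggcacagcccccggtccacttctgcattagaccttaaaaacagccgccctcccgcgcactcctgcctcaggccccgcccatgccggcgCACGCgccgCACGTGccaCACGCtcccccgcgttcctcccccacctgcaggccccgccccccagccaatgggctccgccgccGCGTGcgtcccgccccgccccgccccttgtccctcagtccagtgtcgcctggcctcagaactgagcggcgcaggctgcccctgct
Hk1, chr10:62340372-62340671, minus strand: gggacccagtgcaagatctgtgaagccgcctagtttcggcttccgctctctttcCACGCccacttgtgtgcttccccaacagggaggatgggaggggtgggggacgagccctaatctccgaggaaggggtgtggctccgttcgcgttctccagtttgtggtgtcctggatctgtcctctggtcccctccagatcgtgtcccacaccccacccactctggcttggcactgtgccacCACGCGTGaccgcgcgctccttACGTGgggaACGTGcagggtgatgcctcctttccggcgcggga
Hk2, chr6:82774405-82774704, minus strand: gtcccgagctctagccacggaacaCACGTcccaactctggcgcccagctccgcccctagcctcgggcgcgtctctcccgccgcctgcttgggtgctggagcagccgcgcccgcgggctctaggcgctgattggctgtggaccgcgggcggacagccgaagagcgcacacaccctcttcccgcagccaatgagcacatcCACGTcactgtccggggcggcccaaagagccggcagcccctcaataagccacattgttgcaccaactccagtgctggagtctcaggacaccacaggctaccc
Ddit4, chr10:59951721-59952020, minus strand: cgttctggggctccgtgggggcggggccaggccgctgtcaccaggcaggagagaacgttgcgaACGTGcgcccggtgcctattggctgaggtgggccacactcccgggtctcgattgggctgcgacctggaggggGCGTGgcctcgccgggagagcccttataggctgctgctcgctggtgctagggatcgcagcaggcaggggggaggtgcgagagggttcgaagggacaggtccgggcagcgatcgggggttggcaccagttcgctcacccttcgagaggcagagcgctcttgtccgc

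The promoter of Bnip3 held 5 matches and that of Slc2a1 held 2. The Hk1 promoter shown held 5, of which 2 overlap in the run CACGCGTG, and the other Hk1 promoter listed held 0. Hk2 and Ddit4 held 2 matches each. Of 42 promoters found for 29 of the 33 measured genes, 33 held at least 1 match (78.6%), against 43.8% of all 32851 promoters in the table. They were also richer in CG dinucleotides, with a median of 20.0 per promoter against 7 over all promoters, and both core sequences contain CG. A match is a run of letters and shows no binding.

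The regulators split into a sensor pair that gave similar ratios in the pairs and a transcription factor that did not. Egln1, the main oxygen-sensing prolyl hydroxylase, gave 0.19 and 0.16 on the arrays of pair 1 and 0.32 and 0.11 on those of pair 2, a mean of 0.19 ± 0.03 (SD, n = 2 pairs; limma adjusted p = 0.497). A dimmer Egln1 probe gave 0.09 and -0.02 in the pairs. Egln3, a hydroxylase that is itself a HIF target, gave 0.27 and 0.25 on the arrays of pair 1, then 0.04 and 0.33 for pair 2, a mean of 0.22 ± 0.05 (limma adjusted p = 0.496). Its log2 signals were 11.33 and 10.67 in Cdc25a;neu tumours, against 11.07 and 10.48 in neu tumours, so each Cdc25a;neu tumour lay above its own partner although the genotypes overlapped. Hif1a gave ratios of -0.36 and -0.07 on the arrays of pair 1 and of 0.68 and 0.54 on those of pair 2, and its signals of 8.26 and 8.80 in Cdc25a;neu tumours overlapped with 8.48 and 8.18 in neu tumours.

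Glucose uptake held the gene with the largest mean ratio over both pairs, although Ddit4 had larger ratios in pair 1 alone. Slc2a1, the widely expressed glucose transporter GLUT1 and a classical HIF target, had log2 signals of 11.02 and 11.31 in Cdc25a;neu tumours, against 12.32 and 12.15 in neu tumours. Both Cdc25a;neu tumours lay below both neu tumours. Its array ratios were -0.85 and -1.75 in pair 1 and -0.50 and -1.17 in pair 2, lower in size on the arrays with Cdc25a;neu in Cy5, and the mean was -1.07 ± 0.33 (SD, n = 2 pairs), which is 2.09-fold lower. It did not pass the test (limma adjusted p = 0.447). Normalization by median centring in place of loess gave -1.02 and a limma adjusted p of 5.16e-07. That setting called 933 of all 32659 genes, with a lowest limma adjusted p of 3.31e-38 from the same 2 pairs. All other settings tried called 0 genes and gave adjusted p-values of 0.377 to 0.621 for Slc2a1. Its 20 nearest measured neighbours on chromosome 4, a set chosen after the values were seen, had a median of -0.03 (pair 1) and -0.05 (pair 2), and their mean ratios ran between -0.56 (Foxj3) and 0.18. Of these 20, 5 lay below 0 on all 4 arrays (25%, against 12.4% of all genes) and 0 above (0%, against 14.7%). Over the pairs, 12 of the 20 were lower in both (against 28.1% of all genes) and 6 higher in both (against 31.9%). Of 11 adipocyte genes, 6 lay below 0 on all 4 arrays (54.5%, against 12.4% of all genes) and 1 above (9.09%, against 14.7%). Their summed signal was 3112 and 3767 in Cdc25a;neu tumours against 8169 and 19583 in neu tumours. Their part in the Slc2a1 ratio was not tested. Slc2a3, the high-affinity transporter GLUT3, gave -0.01 and 0.06 in the pairs.

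Hexokinases trap glucose in the cell as glucose-6-phosphate. Hk1, the broadly expressed form, had log2 signals of 8.13 and 7.88 in Cdc25a;neu tumours against 7.77 and 7.47 in neu tumours, with no overlap. Its mean ratio was 0.39 ± 0.04 (SD, n = 2 pairs; limma adjusted p = 0.437), a 1.31-fold difference, although the arrays of pair 2 gave 0.78 and 0.05. Among 3 further probes tied to Hk1 by accession, 2 differed in sign between the pairs, at 0.17 and -0.03 and at 0.21 and -0.07, and the third gave 0.15 and 0.24. The probe with 0.21 and -0.07 was brighter than the one used, at a mean log2 signal of 8.42 against 7.81. Hk2, the inducible form and a HIF target, had signals of 9.40 and 9.18 against 8.89 and 9.02, again without overlap, and a mean ratio of 0.34 ± 0.25 (limma adjusted p = 0.533). Gpi1, the isomerase that turns glucose-6-phosphate into fructose-6-phosphate, ran the other way. Its signals were 13.12 and 13.29 in Cdc25a;neu tumours and 13.41 and 13.51 in neu tumours, and its mean ratio was -0.26 ± 0.05 (SD, n = 2 pairs; limma adjusted p = 0.486).

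Phosphofructokinase is the main control point of glycolysis, and its 3 subunit genes gave their lower ratios in pair 2. Pfkl, named for liver, gave 0.14 in pair 1 and -0.33 in pair 2. Pfkp, named for platelets, gave 0.21 and -0.36, and its second probe gave 0.11 in each pair. Pfkm, named for muscle, gave -0.13 and -0.34, and its signals of 8.82 and 8.86 in Cdc25a;neu tumours lay below 8.95 and 9.19 in neu tumours. Skeletal muscle markers had a median of 0.06 in pair 1 and -1.09 in pair 2, and their part in these ratios was not tested. Pfkfb3, which makes the activator fructose-2,6-bisphosphate and is induced by HIF-1, gave -0.32 and 0.07.

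Of 6 enzyme genes of lower glycolysis matched by name, 3 gave ratios above 0 in both pairs (Tpi1, Pgk1 and Eno2). Another 1, the weakly detected Eno1, lay below 0 in both. Among all genes tested, 31.9% lay above 0 in both pairs and 28.1% below 0 in both. The median mean ratio of the 6 was 0.03, beside 0.00 for all genes. Tpi1, triose phosphate isomerase, had array ratios of 0.18 and 0.25 (pair 1) and 0.28 and 0.66 (pair 2), a mean of 0.34 ± 0.18 (SD, n = 2 pairs; limma adjusted p = 0.507), and its dimmer probe gave 0.01 and 0.32. Pgk1, phosphoglycerate kinase, had signals of 13.21 and 13.57 in Cdc25a;neu tumours against 13.18 and 13.04 in neu tumours, with ratios of 0.03 in pair 1 and 0.53 in pair 2. Gapdh gave 0.11 and 0.46, and its second probe 0.24 and 0.51. Both Gapdh probes are uncertain, since the mouse genome holds many near-identical copies of this gene. Pgam1, phosphoglycerate mutase, gave 0.12 and 0.15, and its mean of 0.13 stood at -0.02 in the authors' deposited table. Eno2, an enolase best known from neurons, gave 0.10 and 0.08, and its dimmer probe 0.01 and 0.38.

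Aldoa, aldolase, was saturated on 2 of 4 arrays in each genotype, which compresses its ratio. Its arrays disagreed by dye in pair 1, at -0.68 and 0.73, and gave -0.37 and -0.14 in pair 2. Its pair ratios were 0.02 and -0.25. The second Aldoa probe, saturated on 1 array in each genotype, gave -0.06 and -0.20 in the pairs. Pkm, pyruvate kinase, had array ratios of -0.63 and 0.00 (pair 1) and 0.42 and 0.09 (pair 2), so the sign of its pair 1 ratio rested on 1 array. The probe named Eno1 was not well above background on any array in Cdc25a;neu tumours and on 2 arrays in neu tumours. Its measured log2 signals averaged 6.10 in Cdc25a;neu tumours and 6.19 in neu tumours (limma adjusted p = 0.640), its arrays differed in sign within each pair, and no fold is given. No RefSeq transcript was tied to this probe, so its identity is uncertain.

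At the fate of pyruvate, the lactate dehydrogenase subunits differed in how well the arrays agreed. Ldhb, the subunit common in oxidative tissue, had signals of 12.73 and 12.73 in Cdc25a;neu tumours against 12.51 and 12.39 in neu tumours. Its ratios lay between 0.14 and 0.37 on the 4 arrays, with a mean of 0.28 ± 0.09 (SD, n = 2 pairs; limma adjusted p = 0.491). Ldha, the HIF-induced subunit, had array ratios of -0.11 and -0.41 (pair 1) and 0.86 and -0.05 (pair 2), so its arrays of pair 2 did not share a sign. The second Ldha probe gave -0.12 and 0.26 in the pairs. Pdk1, the HIF-induced kinase that shuts pyruvate dehydrogenase, gave -0.17 and -0.03.

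Of 3 secreted targets of the hypoxia response, Vegfa and Angptl4 had opposite signs in the pairs, and Adm lay above 0 in both. Vegfa, the chief growth factor of blood vessels, had array ratios of -0.22 and -0.12 (pair 1) and 0.37 and 0.38 (pair 2). Its second probe gave -0.18 and 0.12 in the pairs. Angptl4, an inhibitor of lipoprotein lipase that responds to hypoxia and to fatty acids, had signals of 8.49 and 10.15 in Cdc25a;neu tumours against 9.19 and 9.56 in neu tumours. The lowest and the highest tumour were thus both Cdc25a;neu. Adm, the vessel-dilating peptide adrenomedullin, gave 0.08 and 0.40, with signals of 7.95 and 8.22 above 7.87 and 7.81 in neu tumours.

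**Figure D2:**
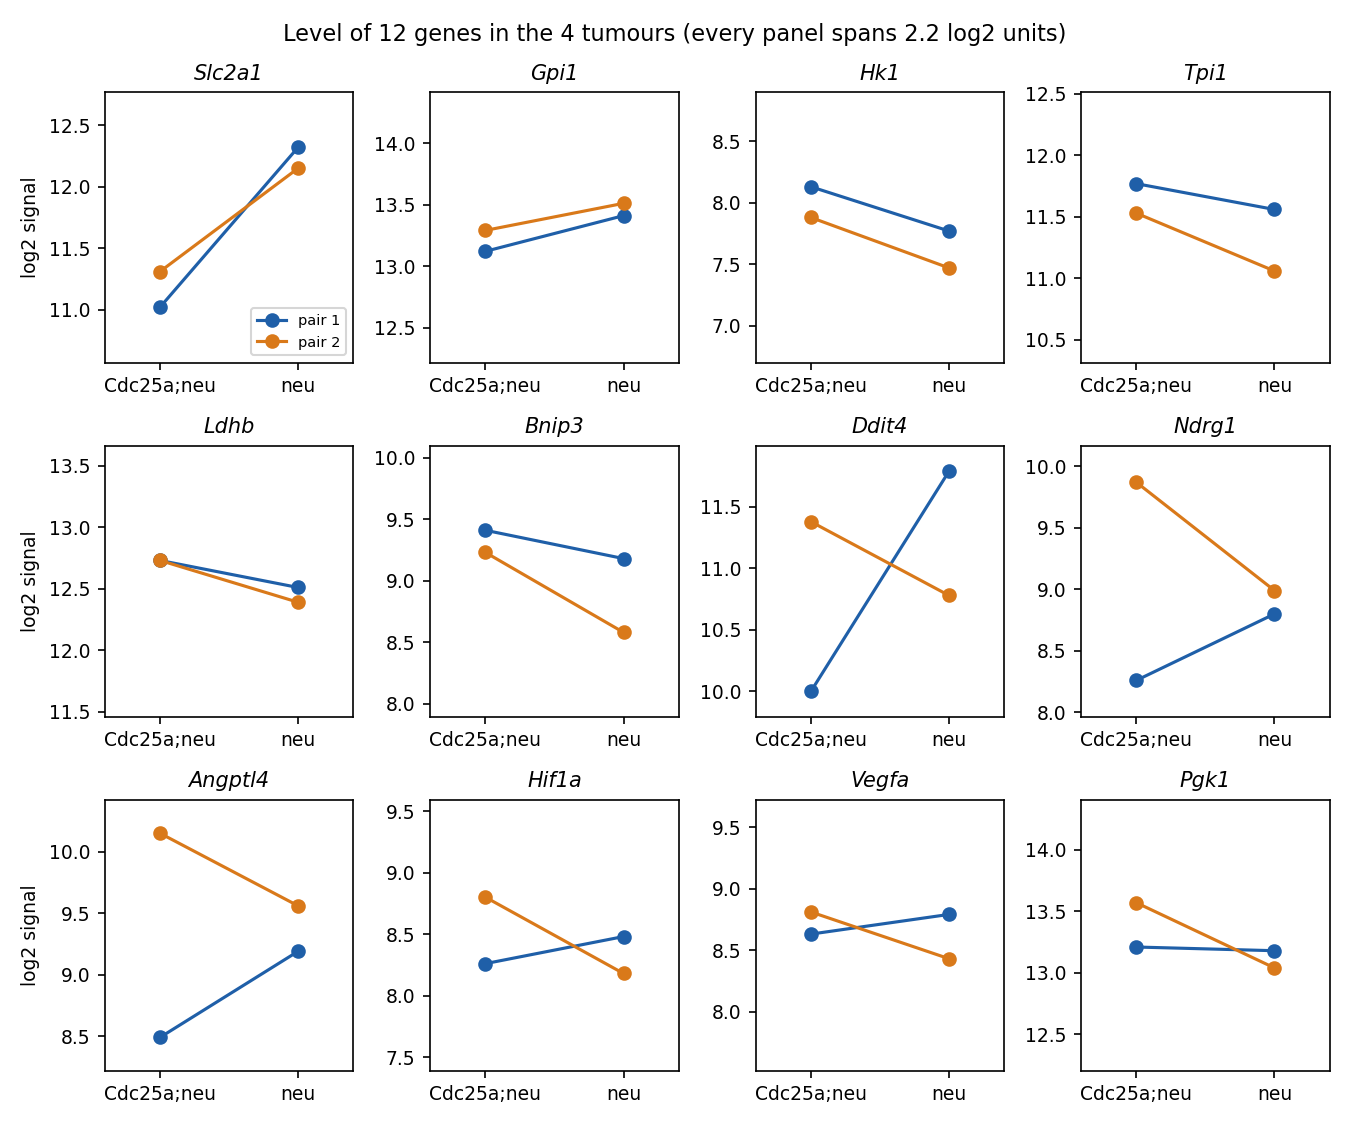
Log2 signal of 12 genes in the 4 tumours, Cdc25a;neu left and neu right, with a line joining the tumours hybridised together (blue pair 1, orange pair 2). Every panel spans the same number of log2 units, and each point is the mean of both dyes. Lines of Slc2a1 run the same way in both pairs, at 11.02 and 11.31 against 12.32 and 12.15, while lines of Ddit4 cross.

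Among targets that act in mitophagy and stress, Bnip3 stood apart from Ddit4 and Ndrg1. Bnip3, which marks mitochondria for removal, had signals of 9.41 and 9.23 in Cdc25a;neu tumours against 9.18 and 8.58 in neu tumours. Its ratios were 0.31 and 0.14 in pair 1 and 0.78 and 0.52 in pair 2, a mean of 0.44 ± 0.30 (SD, n = 2 pairs; limma adjusted p = 0.524), or 1.36-fold higher. Its relative Bnip3l gave 0.14 and 0.06, and the second Bnip3l probe gave 0.06 and 0.33. Ddit4, also called REDD1, an inhibitor of mTORC1 signalling, had array ratios of -1.32 and -2.25 (pair 1) and 0.65 and 0.56 (pair 2). The Cdc25a;neu tumour of pair 2 had a signal of 11.38, against 10.78 in its neu partner and 11.79 in the neu tumour of pair 1. The Cdc25a;neu tumour of pair 1 was the lowest of the 4, and the ratios make Ddit4 3.45-fold lower in pair 1 and 1.52-fold higher in pair 2. Ndrg1, a stress-induced gene used as a marker of hypoxia, had signals of 8.26 and 9.87 in Cdc25a;neu tumours against 8.80 and 8.99 in neu tumours.

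The last group showed small ratios. Car9, a carbonic anhydrase at the cell surface that serves as a hypoxia marker, gave 0.04 and 0.17 in the pairs. P4ha1, a subunit of the enzyme that hydroxylates collagen, gave 0.06 and 0.10, with 0.00 on the array of each pair that had Cdc25a;neu in Cy5. A brighter P4ha1 probe tied by accession gave 0.16 and 0.22. The probe named P4ha2, its paralog, was above background on 0 arrays, and a probe tied to P4ha2 by accession gave -0.06 and 0.88. Ero1l, an oxidase of protein folding, gave -0.08 and 0.05.

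In all, 7 genes lay below 0 on both arrays of pair 1 and above 0 on both arrays of pair 2, namely Hif1a, Pfkfb3, Pkm, Vegfa, Angptl4, Ddit4 and Ndrg1. These 7 of 29 (24.1%) stand against 7.58% of all genes tested. They are 6 without Pkm, whose second array of pair 1 rounds to 0.00, and 4 with median centring (Pkm, Angptl4, Ddit4 and Ndrg1). With the pair 1 array that had Cdc25a;neu in Cy5 left out they are 11, where fewer arrays had to share the pattern. The opposite pattern held for Pfkp alone among the 29, which is 3.45% against 5.91% of all genes. Among genes well above background in both channels on all arrays, these shares were 7.55% and 6.20%. The Cdc25a;neu tumour of pair 2 had the highest signal and that of pair 1 the lowest of the 4 tumours for Ldha, Angptl4 and Ndrg1, which is 10.3% of the 29 genes and close to the 10.9% of all genes. Over the 29 genes the ratios of the pairs correlated at r = -0.32, a description across genes that share the same arrays and are not independent replicates. A test of pair 2 against pair 1 over the 4 arrays, added after these values were seen, called 6 of the 29 genes with a higher ratio in pair 2 (20.7%, against 2.93% of all genes) and 0 with a lower one (against 1.63% of all genes). The 6 were Angptl4, with a difference of 1.29 (limma adjusted p = 0.00372), Ndrg1 with 1.42 (0.00512), Ddit4 with 2.39 (0.00672), Hif1a with 0.83 (0.0192), Vegfa with 0.54 (0.0286) and Pgk1 with 0.50 (0.0427). This test sets 2 pairs of mice against the spread between dye-swapped arrays, which is technical, and it depends on the processing. With median centring it called 0 of the 29 genes, and 0% of all genes, beside 4.56% of all genes in the main setting. With the scanner's own ratios or processed signals it called 1 (Ndrg1), against 1.09% of all genes. From the authors' deposited values it called 2 (Angptl4 and Ddit4), against 2.17% of all genes. With the mean of all kept probes of a gene it called 5, against 4.41% of all genes, and Vegfa was no longer called.

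**Figure D3:**
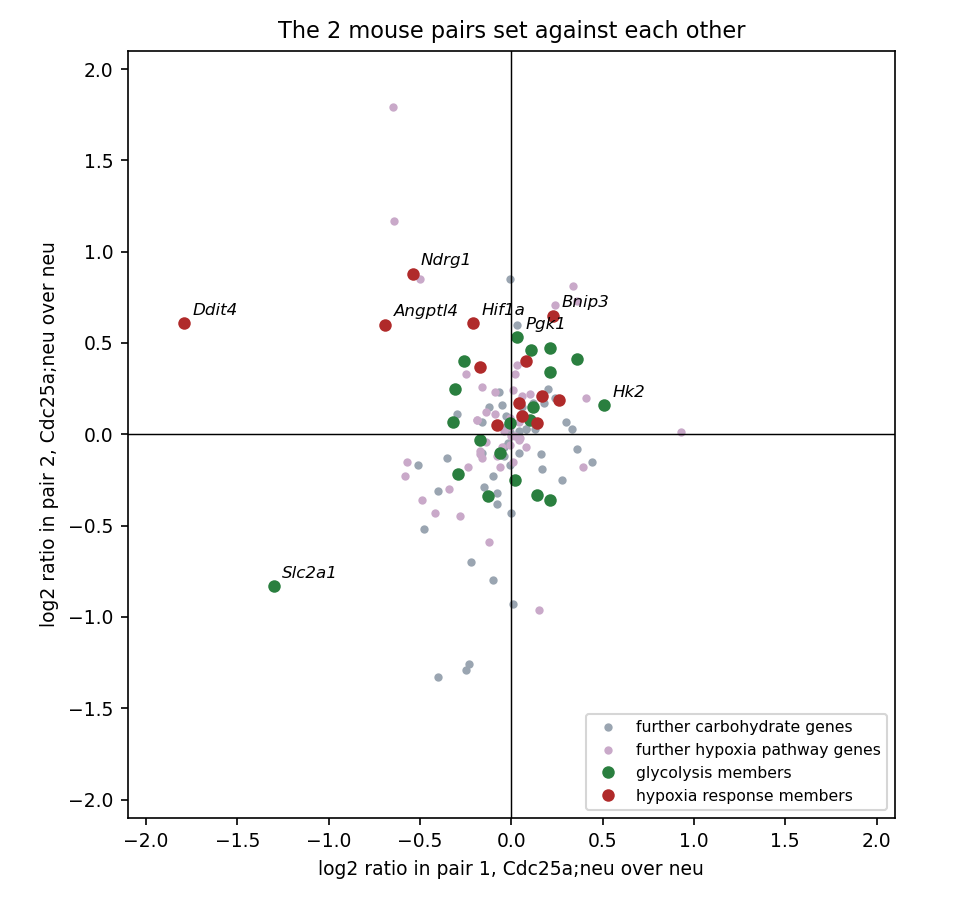
Log2 ratio of Cdc25a;neu over neu in pair 1 (horizontal) and pair 2 (vertical), 1 point per gene. Green points are the glycolysis genes and red points the hypoxia response genes of the list, with smaller points for further carbohydrate and hypoxia pathway genes. Ddit4, Angptl4, Ndrg1 and Hif1a lie at the upper left, and Slc2a1 alone of the named points lies at the lower left.

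Macrophage and myeloid markers moved with this split. Of 9 measured, 6 were also below 0 on both arrays of pair 1 and above 0 on both of pair 2 (66.7%, against 7.58% of all genes), with medians of -0.38 and 0.52 in the pairs. Their summed signal was 11325 and 42012 in Cdc25a;neu tumours against 15473 and 16415 in neu tumours. All 9 were detected, 8 of them on all 4 arrays in each genotype. Of 8 fibroblast and matrix markers, 3 followed the split and 3 lay below 0 on all 4 arrays (37.5%, against 12.4% of all genes). They had medians of -0.37 and 0.05, and summed signals of 1929 and 8734 against 2573 and 4797. Of 3 erythroid markers, 2 followed the split, with medians of -0.17 and 0.59, and summed signals of 1708 and 4756 against 2313 and 1608. Of 8 epithelial markers 1 followed the split, with medians of -0.14 and -0.11, and of 10 endothelial markers 1, with medians of 0.04 and 0.05. The part of these cells in the ratios of Ddit4, Ndrg1, Angptl4, Hif1a and Vegfa was not tested.

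**Figure D4:**
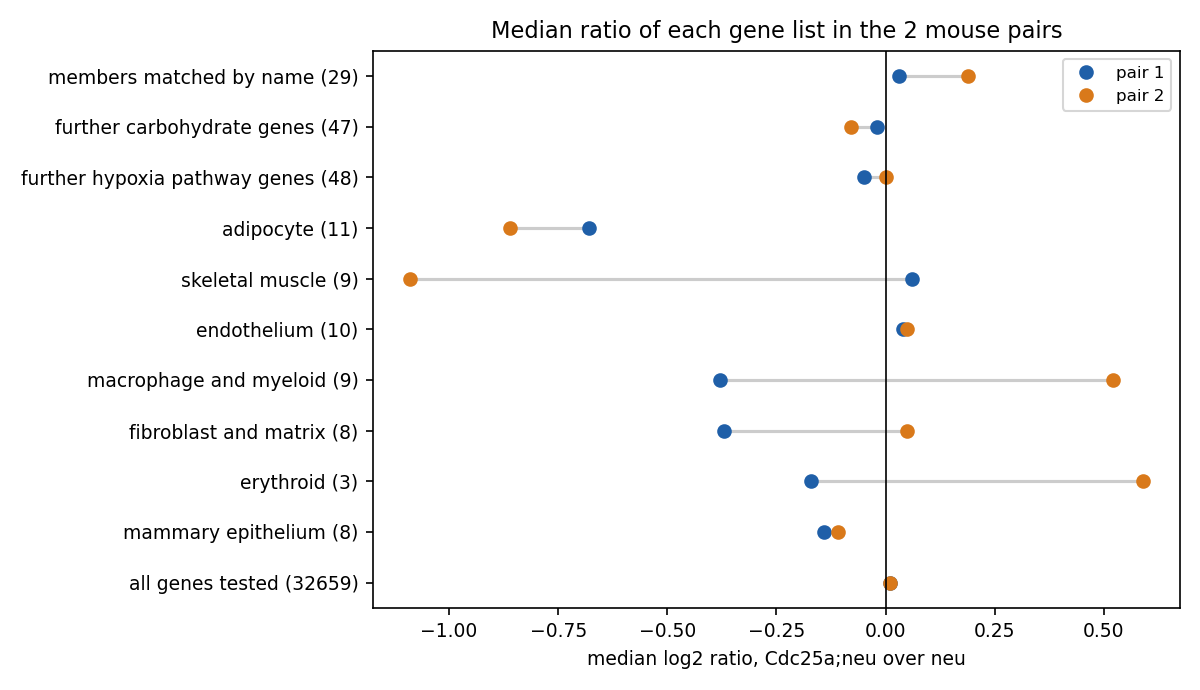
Median log2 ratio of Cdc25a;neu over neu in pair 1 (blue) and pair 2 (orange) for the 29 list genes matched by name, 2 wider pathway lists, 7 lists of cell type markers and all genes tested, with the number of measured genes in brackets. Macrophage and myeloid markers stand at -0.38 and 0.52, adipocyte markers at -0.68 and -0.86, and all genes at 0.01 in each pair.

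In a wider list of carbohydrate genes, 47 of 53 were measured, and none (0) passed the limma test. Values lay above 0 on all 4 arrays for 6 of them (12.8%, against 14.7% of all genes) and below 0 on all 4 for 14 (29.8%, against 12.4%), and the medians were -0.02 and -0.08 in the pairs. At an unadjusted p under 0.05, 3 were higher (6.38%, against 3.92% of all genes) and 3 lower (6.38%, against 5.74%). The 6 largest mean ratios were all negative. Pck1, which makes phosphoenolpyruvate for glucose and glycerol synthesis, gave -0.40 and -1.33 in the pairs. Gpd1, glycerol-3-phosphate dehydrogenase, gave -0.25 and -1.29, with 0.04 as the mean of its other probe. Both are abundant in fat, where the adipocyte markers had medians of -0.68 and -0.86. Eno3, the muscle form of enolase, gave -0.23 and -1.26, and Pgam2, the muscle form of phosphoglycerate mutase, gave 0.01 and -0.93. The skeletal muscle markers stood at 0.06 and -1.09. H6pd, the hexose-6-phosphate dehydrogenase of the endoplasmic reticulum, gave -0.48 and -0.52, with a limma adjusted p of 0.437 and a mean of -0.04 for its other probe. Pdk4, a pyruvate dehydrogenase kinase raised in fasting, gave -0.22 and -0.70. The part of fat and muscle in these ratios was not tested.

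In a wider list of hypoxia pathway genes, 48 of 50 were measured, and none (0) passed the limma test. Values lay above 0 on all 4 arrays for 7 (14.6%, against 14.7% of all genes) and below 0 on all 4 for 11 (22.9%, against 12.4%), with medians of -0.05 and 0.00. At an unadjusted p under 0.05, 3 were higher (6.25%, against 3.92% of all genes) and 6 lower (12.5%, against 5.74%). Below 0 on both arrays of pair 1 and above 0 on both of pair 2 lay 7 genes (14.6%, against 7.58% of all genes). Mif, a cytokine, gave 0.34 and 0.81, and Fam162a, a mitochondrial protein induced by hypoxia, gave 0.36 and 0.73. Pgf, a relative of Vegfa, gave 0.24 and 0.71. Hmox1, the enzyme that degrades haem and is rich in macrophages, gave -0.65 and 1.79, the same split as Ddit4 and Ndrg1, with signals of 9.49 and 11.53 in Cdc25a;neu tumours against 10.14 and 9.75 in neu tumours. Igfbp3, which binds insulin-like growth factors, gave 0.93 and 0.01, with 0.06 as the mean of its other probe. Car12, a second carbonic anhydrase of the cell surface, gave -0.42 and -0.43 (limma adjusted p = 0.437), with signals of 9.62 and 9.26 in Cdc25a;neu tumours, both below 10.05 and 9.69 in neu tumours.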

How the data were processed

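RNA of 4 tumours was measured on 4 arrays. Amplification was linear, primed with oligo-dT, with Cy3 or Cy5 built into the product, per the labels' protocols. Scanner files give the intensity of each spot and of its local background, and a log10 ratio of red over green, per the file headers. Agilent Feature Extraction is version 7.2 per the submitters' processing notes and 7.5.1 per the file headers. The authors' deposited table was read as a natural log of red over green, from slopes of 2.27 to 2.29 against the log10 ratio. Its column medians were 0.0209, 7e-04, 0.0209 and 0.0078, and the labels do not give its normalization.

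Intensities were background-corrected (normexp, offset 50) and normalized by loess within arrays in limma 3.58.1 (R 4.3.3). Flagged outlier spots were left out and spots of a probe averaged. Probes had to be well above background in 1 channel or both on 2 or more arrays, and a gene was represented by its brightest such probe. For list genes matched by name only probes with that name counted, so brighter probes tied by accession to Hk1 and P4ha1 were not used. The 2 arrays of a pair were averaged as 1 replicate, and log2 pair ratios, computed here from the deposited intensities, were tested against 0 with eBayes, and p-values were adjusted over 32659 genes (Benjamini-Hochberg, threshold 0.05). Levels per tumour came from the same signals after quantile scaling of mean intensities. Slide could not be tested, as each array lay on its own. Scripts were tested on simulated data. Other normalizations, sources of values, filters, probe rules and tests, and arrays or pairs left out, were tried as alternatives.

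All measured members are named, with other probes where they differ in sign or by over 0.5, and the 6 largest mean ratios of each wider list. The members, lists and rules were chosen with earlier results of these data known. Names came from RefSeq tables (GRCm38.p6). The number of pairs limits the precision.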

Additional observations from a re-analysis of the deposited data

How the results depend on the processing

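The count of 0 among the 29 genes matched by name held under every alternative run, while Slc2a1, matched by accession, passed with median centring (adjusted p = 5.16e-07 in limma). Median centring called 933 of all 32659 genes, against 0 in the main setting and in all other alternatives tested. Where 0 genes of the whole array were called, 0 of the 29 had to follow. The alternatives include separate tumour signals with no replicate block, where 0 of the 29 passed as well. Counts of 8 genes above 0 and 2 below 0 on all 4 arrays were 2 and 0 with median centring in place of loess. Leaving out single arrays gave 8 to 12 and 2 to 4. The 7 genes below 0 in pair 1 and above 0 in pair 2 were 4 with median centring (Pkm, Angptl4, Ddit4 and Ndrg1) and 7 to 11 with an array left out. With an array left out fewer arrays must share a sign, so such sign counts can only stay or rise. For sign counts with median centring or an array left out, shares of all genes are not given here. The test between pairs called 6 genes, against 4.56% of all genes, but 0 with median centring, where 0% of all genes were called. It called 1 with processed signals and 1 with the scanner's log ratio (1.09% of all genes each). With the authors' table it called 2 (2.17% of all genes), and with the mean of all kept probes 5, without Vegfa (4.41% of all genes). These counts between pairs were added after seeing the data. The causes were not tested.

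Alternatives that changed only the filter on dim probes or the test left the ratios as they were, so those values could not turn sign. Of 295 gene values under alternatives that keep all arrays, with these included, 4 turned sign. They were Pkm (0.02) and Angptl4 (0.01) with median centring, Pgam1 (-0.02) with the authors' table and Pfkp (0.02) with the mean of all kept probes. With an array or a mouse pair left out, 24 of 198 turned sign. Values then ran between -0.21 and 0.61 for Hif1a, -0.01 and 0.06 for Slc2a3, -0.33 and 0.14 for Pfkl, -0.36 and 0.21 for Pfkp, and -0.32 and 0.07 for Pfkfb3. They ran between -0.47 and 0.24 for Aldoa, -0.31 and 0.25 for Pkm, -0.26 and 0.40 for Ldha, -0.17 and 0.37 for Vegfa, and -0.69 and 0.60 for Angptl4. For Ddit4 they ran between -1.79 and 0.61, for Ndrg1 between -0.54 and 0.88, and for Ero1l between -0.08 and 0.05. Of the 33 genes, 19 kept their sign under all alternatives run, among them Slc2a1, Gpi1, Hk1, Hk2, Ldhb, Tpi1 and Bnip3. The 19 also include Eno1 and P4ha1, whose arrays gave values near 0 or of mixed sign. The share of all genes that kept their sign is not given here. Signals near background compress ratios through the offset, which limits Eno1, and saturation limits Aldoa.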
